A study of Mus musculus with 23 samples.

Results

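The aryl hydrocarbon receptor (AhR) genes described here are the 6 genes Ahr, Arnt, Ahrr, Cyp1a1, Cyp1b1 and Tiparp, found by their symbols among the 19733 genes of a hippocampal RNA sequencing table from 23 mice. All mice were wild-type male C57BL/6J animals, acquired at 6 weeks of age, of which 9 were controls (Ctrl), 7 were fed ethanol (EtOH) and 7 were fed ethanol and given urolithin A (EtOH-UA). The Ctrl mice drank an AIN93M control liquid diet and the EtOH and EtOH-UA mice an AIN93M ethanol liquid diet for 16 weeks, which was followed by 1 week of behavioral tests. Every mouse was gavaged daily, the Ctrl and EtOH mice with the vehicle, 0.05% carboxymethylcellulose sodium, and the EtOH-UA mice with urolithin A (UA) at 200 mg/kg/day. No group received UA without ethanol. The study assigned 10 mice to each group, and the time from the last gavage to tissue collection is not given in the sources used here. UA, a gut microbial metabolite of ellagitannins, has been described as a ligand of AhR, so the EtOH-UA against EtOH comparison asks whether the hippocampal transcripts of the receptor and its targets differed under UA, and the EtOH against Ctrl comparison asks the same of the diet.

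AhR is a ligand-activated transcription factor of the bHLH-PAS family that waits in the cytoplasm with the chaperone HSP90 and its co-chaperone p23. On binding a ligand it moves to the nucleus, pairs with ARNT and binds a short DNA element, the dioxin response element, whose core reads GCGTG. The cytochrome P450 genes Cyp1a1 and Cyp1b1 are classical targets, and the targets Ahrr and Tiparp encode proteins that act back on the receptor, AHRR by competing for ARNT and TIPARP by ADP-ribosylation of AhR.

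The core element is shown first, because it is the DNA element through which the receptor acts on its targets. Promoter windows of 300 bases, from 250 bases before to 50 bases after an annotated start, were read from RefSeq on GRCm38.p6 for 5 of the 6 genes, and Ahr had no entry. Each of the 5 windows held the core GCGTG or, on the other strand, CACGC, with 7 sites in all. It was present in 32.4% of all 32851 windows and in 46.5% of the 16155 windows of genes tested here, so its presence in a window is common. In a list of 20 known targets, which includes Ahrr, Cyp1a1, Cyp1b1 and Tiparp, 15 genes had a window and 8 of these held the core. The lines below give each site outside Ahrr with 10 bases on either side, 5′ to 3′ along the gene's strand, with the core in capitals.

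Arnt: atagtttgggGCGTGtcttctgccc
Cyp1a1: agataaggagGCGTGgccaacagac
Cyp1b1: tcccgcccctCACGCcccaccccct
Tiparp: ccgtccggagCACGCgcacgggagg

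Counted from the annotated start, these cores began at base -29 in Arnt (chr3:95434361-95434365, plus strand), -54 in Cyp1a1 (chr9:57697559-57697563, plus strand), -76 in Cyp1b1 (chr17:79715133-79715137, minus-strand gene) and -170 in Tiparp (chr3:65528277-65528281, plus strand). The Cyp1a1 window, chr9:57697363-57697662, lies inside the span of that gene given below, so the start counted from is not the first base of that span. In Cyp1b1 and Tiparp the core read along the strand opposite to the gene.

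The Ahrr window, chr13:74292282-74292581 on the minus strand, is shown whole because it held 3 cores, more than any other of the 5 windows, and 3.91% of all windows held 3 or more (6.54% of those of tested genes).

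Ahrr: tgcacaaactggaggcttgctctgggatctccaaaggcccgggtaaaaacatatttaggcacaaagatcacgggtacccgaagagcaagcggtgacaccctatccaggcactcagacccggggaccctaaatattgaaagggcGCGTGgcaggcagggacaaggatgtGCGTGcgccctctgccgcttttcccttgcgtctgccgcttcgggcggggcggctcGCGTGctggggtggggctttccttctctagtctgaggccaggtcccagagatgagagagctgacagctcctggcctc

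The Ahrr cores began at bases -107, -82 and -27. The core nearest the start lay in the longer form TNGCGTG (here TCGCGTG), which was in 1 of the 5 windows, in 5.07% of all windows and in 7.17% of the windows of tested genes. These matches describe letters in a short window, and the table holds no measurement of binding.

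**Figure D1:**
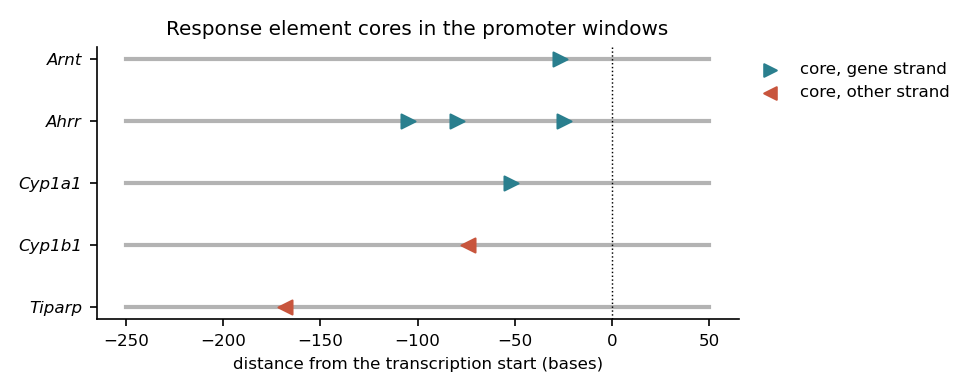
Position of each GCGTG or CACGC core in the promoter windows of 5 AhR genes, as bases from the annotated start (x axis), with 1 line per gene. Ahrr carries 3 cores and the other genes 1 each, and all 7 lie before the start.

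Values are FPKM (fragments per transcript kilobase, scaled to the size of each library), as the authors deposited them to 2 decimals. Summed FPKM ranged from 327896 to 404609 over the 23 libraries, and 3 libraries were highest, 2 of EtOH-UA mice (404609 and 379518) and 1 of an EtOH mouse (366930). Fold changes of the AhR genes that rest on these libraries are given with and without them. Counts and medians of the other gene lists are given only with these libraries included, and their dependence on them was not tested. The tissue label was checked against markers: all 6 neuronal markers, led by Snap25 with a mean of 1102 FPKM, and all 7 markers of hippocampal principal cells, led by Neurod6 at 104 FPKM, were measured. Markers of choroid plexus, the tissue of the ventricles that secretes cerebrospinal fluid, varied far more, with a summed level of 8.05 to 2978 FPKM in the Ctrl group, 70.9 to 5764 in the EtOH group and 16.2 to 7833 in the EtOH-UA group. As RNA came from whole tissue, fewer cells of a type and less RNA per cell cannot be told apart in any value below.

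The 6 genes spanned a wide range of FPKM. Arnt was highest with a mean of 13.6 FPKM over all mice, followed by Tiparp at 4.79, Ahr at 2.18, Cyp1b1 at 0.990, Ahrr at 0.484 and Cyp1a1 at 0.0491 FPKM. Arnt thus lay above 71.9% of all genes in the table, Tiparp above 51.5%, Ahr above 41.5% and Cyp1a1 above 15.3%. The ranges of Arnt and Tiparp, of Tiparp and Ahr, and of Ahrr and Cyp1a1 did not overlap over the 23 mice. Those of Ahr and Cyp1b1 overlapped, although Ahr was the higher in 23 of 23 mice, and Cyp1b1 was above Ahrr in 22 of 23. The receptor complex was therefore measured at levels that differed between its parts, with the partner above the receptor in every mouse.

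Low FPKM rest on few fragments. The steps between the lowest values of 20 genes with a single transcript gave an estimated depth at which 1 FPKM equals 16.9 fragments on each kilobase (quartiles 15.3 and 17.2 over these genes). By this estimate a mouse contributed on average 994 fragments for Arnt, 339 for Tiparp, 204 for Ahr, 85.8 for Cyp1b1, 38.9 for Ahrr and 2.24 for Cyp1a1. Counting error alone would then give a coefficient of variation of 3.17% for Arnt and 10.8% for Cyp1b1, against observed values of 10.6% and 30.7% over all mice. For Tiparp these were 5.43% and 10.4%, for Ahr 7.00% and 13.6%, and for Ahrr 16% and 28.0%. Over all mice the observed value was thus above the estimated counting error for each of these 5 genes. Within the EtOH-UA group it was 28.1% for Cyp1b1 and 32.5% for Ahrr.

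**Figure D2:**
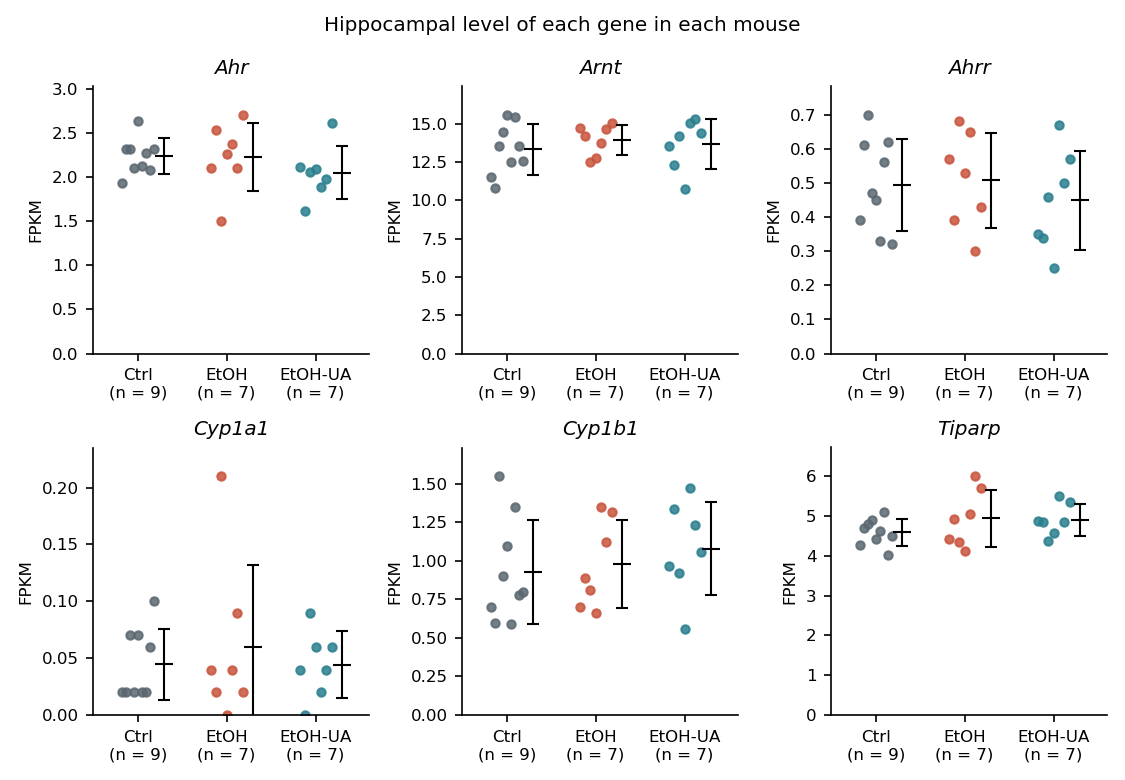
FPKM of the 6 AhR genes in each mouse, 1 panel per gene on its own linear axis, with 9 Ctrl, 7 EtOH and 7 EtOH-UA mice as points and black bars for the mean ± SD (cut at 0 for Cyp1a1). The 3 groups overlap in every panel, from Arnt at 10.7 to 15.6 FPKM to Cyp1a1 at 0 to 0.21 FPKM.

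Annotated transcripts that are not in the table overlap 3 of the genes, Gm48236 and 4931440P22Rik on the strand opposite to Ahr and Tiparp and Gm42672 on the strand of Arnt. Reads of Gm48236 and 4931440P22Rik cannot be told apart from those of Ahr and Tiparp where the counting ignored strand. Those of Gm42672 cannot be told from Arnt by strand at all.

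Ahr encodes the receptor itself (gene ID 11622, chr12:35497979-35534989, minus strand, 11 exons). Its lowest, median and highest FPKM were 1.93, 2.28 and 2.64 in Ctrl mice, 1.5, 2.26 and 2.71 in EtOH mice, and 1.62, 2.06 and 2.61 in EtOH-UA mice. The groups overlapped over most of their range, although 6 of 7 EtOH-UA mice lay below the EtOH median. The means were 2.24 ± 0.204 FPKM (SD, n = 9), 2.23 ± 0.390 (n = 7) and 2.05 ± 0.299 (n = 7). The log2 fold change in EtOH-UA against EtOH mice was -0.11 (SE 0.11, 95% confidence interval -0.33 to 0.12, adjusted p = 0.900, limma), which spans -20.3% to 8.3%. Against Ctrl it was -0.12 (interval -0.33 to 0.08) in EtOH-UA and -0.02 (interval -0.23 to 0.19) in EtOH mice. The lowest EtOH value, 1.5 FPKM, came from the EtOH library with the highest summed FPKM. Without that mouse the EtOH-UA against EtOH value was -0.19 with an unadjusted p of 0.0476 and an adjusted p of 0.574 (limma). Without the EtOH-UA mouse at 1.62 FPKM, whose library had the highest summed FPKM, it was -0.05 with an unadjusted p of 0.614, and these were the ends of the range with each mouse left out. Without all 3 libraries of highest summed FPKM it was -0.14.

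Arnt encodes the nuclear partner of AhR (gene ID 11863, chr3:95434367-95497240, plus strand, 21 exons). The lowest, median and highest values were 10.8, 13.5 and 15.6 FPKM in Ctrl mice, 12.5, 14.2 and 15.03 in EtOH mice, and 10.7, 14.2 and 15.3 in EtOH-UA mice. The EtOH values lay inside the range of the Ctrl values, and the EtOH-UA group had both of its lowest mice among the libraries of highest summed FPKM. The means were 13.3 ± 1.66 FPKM (SD, n = 9), 13.9 ± 0.991 (n = 7) and 13.6 ± 1.63 (n = 7). The log2 fold change was -0.04 in EtOH-UA against EtOH (SE 0.08, interval -0.21 to 0.14) and 0.07 in EtOH against Ctrl (SE 0.08, interval -0.09 to 0.24), and 0.03 in EtOH-UA against Ctrl (interval -0.13 to 0.20). The intervals of Arnt and Tiparp were the narrowest of the 5 genes tested, and for Arnt in EtOH against Ctrl mice the interval ran from -6.1% to 17.7%. Without the 3 libraries of highest summed FPKM the EtOH-UA against EtOH value was 0.03, so that its sign rested on them.

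Ahrr encodes the AhR repressor (gene ID 11624, chr13:74211118-74292331, minus strand, 11 exons). From lowest through median to highest it gave 0.32, 0.47 and 0.70 FPKM in Ctrl mice, 0.30, 0.53 and 0.68 in EtOH mice, and 0.25, 0.46 and 0.67 in EtOH-UA mice. The 3 ranges were nearly the same, and 5 of 7 EtOH-UA mice lay below the EtOH median. The means were 0.494 ± 0.135 FPKM (SD, n = 9), 0.507 ± 0.140 (n = 7) and 0.449 ± 0.146 (n = 7). The log2 fold change was -0.16 in EtOH-UA against EtOH (SE 0.19, interval -0.55 to 0.24) and 0.03 in EtOH against Ctrl (SE 0.18, interval -0.34 to 0.40), and -0.13 in EtOH-UA against Ctrl (interval -0.50 to 0.24). Without the 3 libraries of highest summed FPKM these 3 values were 0.09, -0.04 and 0.05, so that every sign turned.

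Cyp1a1, the target most used as a readout of AhR activity (gene ID 13076, chr9:57687928-57703824, plus strand, 7 exons), was at the limit of the data. The lowest, median and highest values were 0.02, 0.02 and 0.10 FPKM in Ctrl mice, 0, 0.04 and 0.21 in EtOH mice, and 0, 0.04 and 0.09 in EtOH-UA mice. It was listed at 0 in 1 EtOH and 1 EtOH-UA mouse, and a count of 0 allows up to 3 fragments, or 0.0658 FPKM by the depth estimate. Only 6 of 23 mice were above that level and every group mean was below it, at 0.0444, 0.0600 and 0.0443 FPKM. This bound holds for a single mouse, and the smallest difference between group means detectable at this depth was not estimated. As the gene was below the filter of the fit, no fold change is given. The highest value of any EtOH-UA mouse was 0.09 FPKM. The two-sided exact permutation test of the difference of means gave p = 0.747 for EtOH-UA against EtOH and p = 0.666 for EtOH against Ctrl. The highest value, 0.21 FPKM, came from the EtOH library with the highest summed FPKM.

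Cyp1b1, the other P450 target (gene ID 13078, chr17:79706940-79715061, minus strand, 3 exons), was measured in every mouse. Its values ran, lowest, median and highest, at 0.59, 0.80 and 1.55 FPKM in Ctrl mice, 0.66, 0.89 and 1.35 in EtOH mice, and 0.56, 1.06 and 1.47 in EtOH-UA mice. The highest single value was that of a Ctrl mouse and the lowest that of an EtOH-UA mouse, although 6 of 7 EtOH-UA mice lay above the EtOH median. The means were 0.930 ± 0.337 FPKM (SD, n = 9), 0.979 ± 0.286 (n = 7) and 1.08 ± 0.303 (n = 7). The log2 fold change was 0.12 in EtOH-UA against EtOH (SE 0.21, interval -0.32 to 0.56, adjusted p = 0.930, limma) and 0.21 in EtOH-UA against Ctrl (SE 0.20, interval -0.20 to 0.63). Without the 3 libraries of highest summed FPKM these values were 0.18 and 0.30. With each mouse left out the first ran from 0.05 to 0.26 and the second from 0.13 to 0.34, both highest without the EtOH-UA mouse at 0.56 FPKM, whose library had a summed FPKM of 379518. The intervals over all mice are the widest of the 5 genes tested and span, for EtOH-UA against EtOH, -19.6% to 47.8%. Cyp1b1 had r = 0.49 to summed astrocyte markers, 0.47 to choroid plexus markers and 0.46 to ependyma markers over the 23 mice (permutation p = 0.0263, 0.0361 and 0.0388, each with an adjusted p of 0.243), and rho was 0.45, 0.48 and 0.43. Without the 2 farthest mice each r was 0.33 to 0.35. To endothelial markers the r of Cyp1b1 was 0.05 and to those of pericytes and smooth muscle 0.10 (permutation p = 0.814 and 0.683). The choroid plexus relation had r of 0.77 in the Ctrl, -0.01 in the EtOH and 0.32 in the EtOH-UA group. In EtOH against Ctrl mice the 7 choroid plexus markers had a median log2 fold change of 1.77, with 2 at an unadjusted p under 0.05 and 0 called by limma, and the 5 ependyma markers had 1.13, with 5 at an unadjusted p under 0.05 and 0 called. With the choroid plexus markers as a covariate the EtOH against Ctrl value of Cyp1b1 was -0.09, against 0.09 (SE 0.20) without it.

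Tiparp, which encodes the ADP-ribosyltransferase that limits AhR signaling (gene ID 99929, chr3:65528447-65555518, plus strand, 6 exons), was the most abundant target among the 6 genes. In order of lowest, median and highest it had 4.01, 4.63 and 5.11 FPKM in Ctrl mice, 4.11, 4.92 and 6.0 in EtOH mice, and 4.37, 4.85 and 5.50 in EtOH-UA mice. The mean of both ethanol groups lay above that of the Ctrl mice, and the ranges overlapped. The means were 4.59 ± 0.337 FPKM (SD, n = 9), 4.94 ± 0.710 (n = 7) and 4.91 ± 0.400 (n = 7). In both ethanol groups the log2 fold change against Ctrl was 0.09 (SE 0.07, interval -0.06 to 0.25), and these comparisons share the Ctrl mice. The exact permutation p was 0.110 for EtOH-UA against Ctrl, the smallest of the 18 permutation tests of the 6 genes. Between the ethanol groups the interval ran from -0.16 to 0.16, or from -10.7% to 11.9%.

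In all 3 comparisons 0 of the 5 AhR genes tested passed an adjusted p of 0.05 in limma (Cyp1a1 was below the filter of a mean of 0.1 FPKM), and 0 had an unadjusted p under 0.05. The background was the same: 0 of 15986 genes (0%) passed the adjusted threshold in each comparison. Unadjusted p-values under 0.05 were found for 523 genes (3.27%) in EtOH-UA against EtOH, 487 (3.05%) in EtOH against Ctrl and 492 (3.08%) in EtOH-UA against Ctrl. The adjusted p of the AhR genes was 0.900 or above for EtOH-UA against EtOH and 0.999 for both comparisons with Ctrl. Of the 18 exact permutation tests 0 had p under 0.05. Of the 5 genes, 1 was higher and 4 lower in EtOH-UA against EtOH mice, with a median log2 fold change of -0.04 against 0.00 for all genes tested. Of the 4, Tiparp lay at 0 to 2 decimals, and Arnt and Ahrr turned positive without the 3 libraries of highest summed FPKM. A p that misses the threshold does not show that the groups were equal, and the intervals give the sizes that remain possible.

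**Figure D3:**
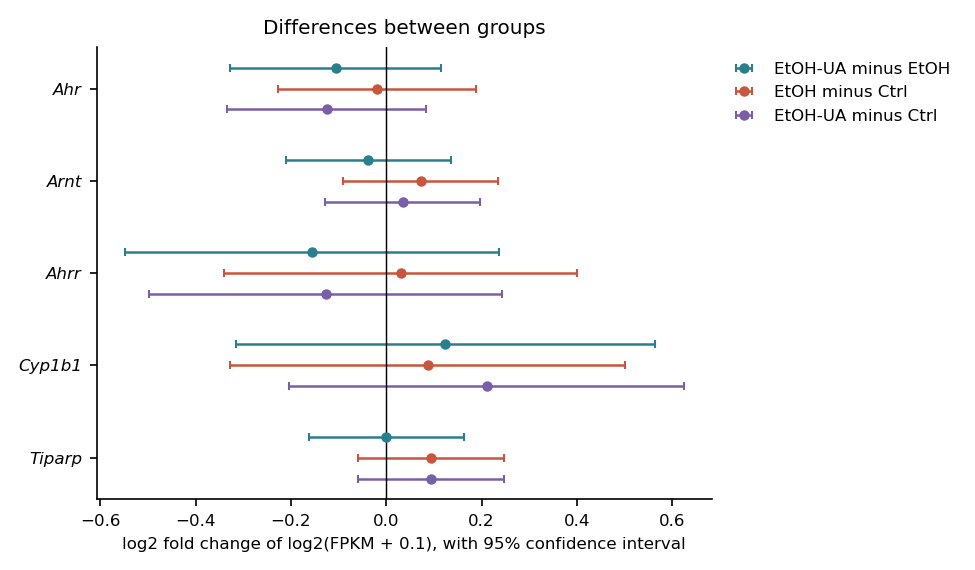
Log2 fold change of log2(FPKM + 0.1) with its 95% confidence interval (x axis) for the 5 tested AhR genes in each of the 3 comparisons. Every interval includes 0, and those of Arnt and Tiparp are narrower than those of Ahrr and Cyp1b1.

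The other genes of the receptor complex were far more abundant than Ahr. Hsp90ab1 and Hsp90aa1, which encode the HSP90 chaperones that hold the unliganded receptor, had means of 761 and 458 FPKM, and Ptges3 (p23) had 69.6 FPKM. Arnt2, the neuronal paralogue of Arnt, had a mean of 54.6 FPKM against 13.6 FPKM for Arnt. In EtOH-UA against EtOH mice 4 of the 8 genes of this list, which includes Ahr, Arnt and Ahrr, were higher and 4 lower, with a median log2 fold change of -0.02, and 0 passed the test. Ptges3 had the smallest p of the list, with a mean of 67.5 ± 5.83 FPKM in Ctrl (SD, n = 9), 67.9 ± 2.52 in EtOH (n = 7) and 74.1 ± 8.41 in EtOH-UA mice (n = 7). Its log2 fold change in EtOH-UA against Ctrl was 0.13 (SE 0.06, unadjusted p = 0.0431, adjusted p = 0.999, limma).

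A list of 20 known targets of the receptor, which includes Ahrr, Cyp1a1, Cyp1b1 and Tiparp, also had 0 calls. Of the 20 genes 14 were tested, and Cyp1a1, Cyp1a2, Gsta1, Cyp2a5, Fgf21 and Il22 were below the filter. Cyp1a2, the third CYP1 enzyme and one mostly made in liver, was listed at 0 in 22 of 23 mice. In EtOH-UA against EtOH mice 11 of the 14 were higher and 3 (Ahrr, Socs2 and, at 0 to 2 decimals, Tiparp) lower, with a median log2 fold change of 0.14 against 0.00 for all genes. In EtOH against Ctrl mice 6 were higher and 8 lower (median -0.06), and in EtOH-UA against Ctrl 9 were higher and 5 lower (median 0.09). Since the EtOH mice enter the first 2 of these comparisons with opposite sign, their medians are not separate observations.

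Gsta2, a glutathione S-transferase, had the smallest p of the target list in EtOH-UA against EtOH mice. It had a lowest, median and highest value of 0, 0.61 and 1.42 FPKM in Ctrl mice, 0, 0.39 and 0.73 in EtOH mice, and 0.28, 0.80 and 1.54 in EtOH-UA mice, and it was listed at 0 in 1 Ctrl and 2 EtOH mice. The log2 fold change was 1.24 (SE 0.54, unadjusted p = 0.0315, adjusted p = 0.900, limma) and depends on the pseudocount, as values at 0 enter it. Gsta genes have near-identical copies between which reads can be split, so the level of any 1 of them is uncertain. Ugt1a6b, a glucuronosyltransferase that shares exons with its neighbors, followed with 0.50 (SE 0.28, unadjusted p = 0.0840).

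Slc7a5, the large neutral amino acid transporter that also carries kynurenine, was the most abundant gene of the target list. Its lowest, median and highest values were 16.9, 19.3 and 20.8 FPKM in Ctrl mice, 14.9, 17.3 and 19.9 in EtOH mice, and 16.8, 17.7 and 20.3 in EtOH-UA mice. The EtOH mice were lower on average and overlapped with the Ctrl mice. The log2 fold change in EtOH against Ctrl was -0.18 (SE 0.06, unadjusted p = 0.00590, adjusted p = 0.999, limma) and in EtOH-UA against EtOH 0.08 (SE 0.06). Socs2, an inhibitor of cytokine signaling, and Nfe2l2, the oxidative stress regulator NRF2, were next in abundance at 10.5 and 6.59 FPKM. Their log2 fold changes in EtOH-UA against EtOH were -0.16 (SE 0.09) and 0.05 (SE 0.10). Aldh3a1, an aldehyde dehydrogenase, had a log2 fold change of -0.50 in EtOH against Ctrl (SE 0.24, unadjusted p = 0.0502).

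**Figure D4:**
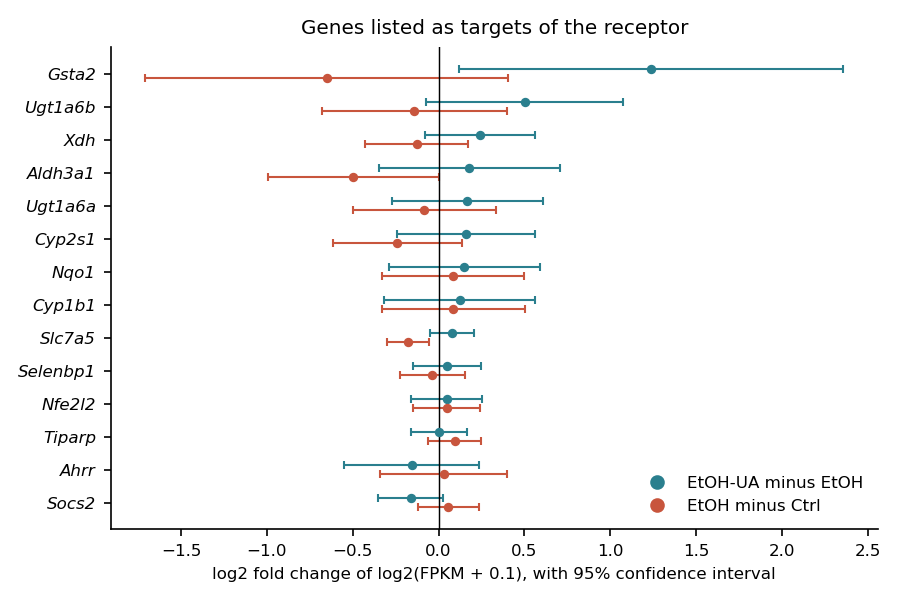
Log2 fold change of log2(FPKM + 0.1) with its 95% confidence interval (x axis) for the 14 tested genes listed as AhR targets. The comparisons shown are EtOH-UA against EtOH and EtOH against Ctrl. Most EtOH-UA against EtOH points lie to the right of 0, and of these intervals only that of Gsta2 excludes 0.

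The levels of the AhR genes were then related to each other across the 23 mice, as deviations from the group means of log2(FPKM + 0.1), in a family of 75 relations that also held the summed FPKM and the summed markers of each cell type list. After Benjamini-Hochberg adjustment 2 of the 75 passed 0.05. Arnt and Cyp1b1 rose and fell together, with a Pearson r of 0.67 (permutation p = 0.00125, adjusted p = 0.0469) and a Spearman rho of 0.62 (permutation p = 0.00295, adjusted p = 0.0587). Within the Ctrl, EtOH and EtOH-UA groups r was 0.73, 0.48 and 0.71. Without the 2 mice farthest from the median of Arnt r was 0.52 (permutation p = 0.0263, adjusted p = 0.197), so the call rested on those mice.

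Arnt also fell as summed FPKM rose, a total of values already scaled to library size and so not a measure of depth. Its correlation with summed FPKM was r = -0.71 (permutation p = 0.000770, adjusted p = 0.0469) and rho = -0.71 (permutation p = 0.000220, adjusted p = 0.0165), with r of -0.65, -0.82 and -0.79 within Ctrl, EtOH and EtOH-UA mice. Without the 2 farthest mice r was -0.76 (adjusted p = 0.0787). Cyp1b1 had r = -0.37 to summed FPKM (permutation p = 0.0918, adjusted p = 0.275) and rho = -0.47 (permutation p = 0.0176, adjusted p = 0.263). Within the Ctrl, EtOH and EtOH-UA groups this r was -0.62, -0.59 and -0.17. Without the 2 farthest mice it was -0.66 (permutation p = 0.00108, adjusted p = 0.0787). The part of summed FPKM in the relation of Arnt to Cyp1b1 was not tested. The pair of targets Cyp1b1 and Tiparp had r = 0.60 (permutation p = 0.00273, adjusted p = 0.0682) and rho = 0.62 (permutation p = 0.00313, adjusted p = 0.0587), with r of 0.44, 0.83 and 0.61 within the groups, and missed the threshold. For Ahr the correlation with summed FPKM was r = -0.57 (permutation p = 0.00651, adjusted p = 0.0976) and rho = -0.35 (permutation p = 0.101, adjusted p = 0.344), with r of -0.36, -0.80 and -0.61 within the groups and -0.24 without the 2 farthest mice. Ahr had r = 0.34 to Arnt (permutation p = 0.0873, adjusted p = 0.275) and r = 0.16 to Cyp1b1 (permutation p = 0.466, adjusted p = 0.699). To markers of microglia, endothelial cells, and pericytes and smooth muscle, the r of Ahr was -0.475, -0.449 and -0.43. The permutation p was 0.0329, 0.0536 and 0.046 (adjusted p = 0.243, 0.275 and 0.265). To ependyma and astrocyte markers the r of Ahr was 0.23 and 0.21 (permutation p = 0.287 and 0.305). For the marker lists named above for Cyp1b1, Arnt had r = 0.60 to ependyma, 0.58 to astrocytes and 0.37 to choroid plexus. The permutation p was 0.00631, 0.0124 and 0.127 (adjusted p = 0.0976, 0.155 and 0.341). Their rho was 0.51, 0.66 and 0.33, and r without the 2 farthest mice was 0.47, 0.61 and 0.13.

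**Figure D5:**
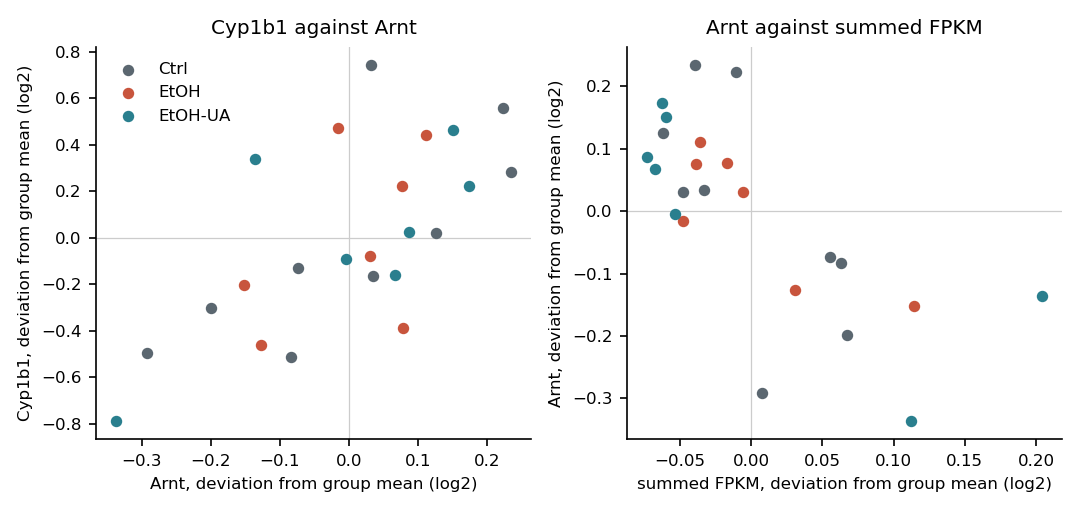
Deviations of log2(FPKM + 0.1) from the group mean in the 23 mice, with 1 point per mouse colored by group, for the relations that passed the adjusted threshold. Arnt and Cyp1b1 rise together (r = 0.67), and Arnt falls as the log2 of summed FPKM rises (r = -0.71).

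Among 12903 genes at a mean of 1 FPKM or more, those most like Ahr across the 23 mice were A830010M20Rik (r = 0.82), Nek4 (r = 0.79), a kinase gene, and Ppp2r5e (r = 0.78), which encodes a regulatory subunit of protein phosphatase PP2A. Closest to Arnt were Gm973 (r = 0.93), Dot1l (r = 0.93), the histone H3 lysine methyltransferase gene, and Ttll4 (r = 0.92), a tubulin glutamylase gene. Closest to Tiparp were Tank (r = 0.84), which encodes a TRAF-binding protein, Zmym5 (r = 0.79) and Usp38 (r = 0.77), a deubiquitinase gene. Arnt had 693 genes with r above 0.7, against 63 for Ahr and 40 for Tiparp. These values are descriptions over libraries that also share a depth and a scaling.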

How the data were processed

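The authors aligned hippocampal reads to mm10 (GRCm38) and quantified them with Bowtie2 and RSEM, and deposited FPKM per gene to 2 decimals. Processing notes name HISAT2 2.1.0, Bowtie2 2.2.5 and RSEM 1.2.8, and the paper gives these and other versions of the latter pair in different places. Poly(A)+ RNA is described in the methods, total RNA in the labels. Columns carry mouse numbers, so they were assigned to groups by name only, and no sample was left out. No 2 columns were identical. Separate mice were the replicates.

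FPKM are not counts, so the count test of the published methods was replaced. The 15986 genes averaging 0.1 FPKM or more were fitted as log2(FPKM + 0.1) with limma 3.58.1 in R 4.3.3. The model held the 3 groups, eBayes moderation with a trend, and no covariate, and Benjamini-Hochberg adjustment ran over every gene fitted. A fold change on this scale understates the change of low genes. Before use the fit was run on simulated data in which genes varied independently, and the outcome is not given here. Exact permutation tests were two-sided and covered 3432 splits (7 against 7 mice) or 11440 (7 against 9), and correlations used 100000 permutations within groups. Single-transcript genes whose low values were whole multiples of a step gave the depth estimate, a method set while looking at the values. Coordinates are from RefSeq on GRCm38.p6.

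The AhR genes and the gene lists were chosen with earlier results of these data known. The genes named were the 6 AhR genes, the 3 most abundant of each pathway list and the 2 with the smallest p in each comparison, and the 3 genes most like each AhR gene that averaged 1 FPKM or more. Alternatives were pseudocounts of 1 and 0.01, no filter, a filter at 1 FPKM, fits on 2 groups, upper-quartile and quantile scaling, array weights and each mouse left out. Chosen after seeing the data were fits without the 3 libraries of highest summed FPKM and with summed FPKM or choroid plexus markers as a covariate.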

Additional observations from a re-analysis of the deposited data

Results flagged for a closer look

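Values that stood apart within a group by Dixon's test at 95% were found in 8 of the 105 groups of values examined over 35 genes, where chance alone would give about 5.2. Among the AhR genes there was 1, the lowest Ahr value of the EtOH group. At 1.5 FPKM it lay below the next mouse at 2.11, with a gap of 0.574 of the group's range, and it came from the EtOH library with the highest summed FPKM, 366930. That library also had the highest Cyp1a1 value, 0.21 FPKM.

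The EtOH-UA library with the highest summed FPKM, 404609, held the lowest values of Arnt2 (30.3 FPKM against 50.9 in the next mouse, gap 0.744 of the range), Per1 (10.4 against 13.5, gap 0.723), Per2 (5.35 against 6.84, gap 0.697) and Npas3 (1.55 against 2.13, gap 0.621), which encode bHLH-PAS or PAS proteins. The same library had the lowest Ahr value of its group, 1.62 FPKM. In the EtOH-UA library next in summed FPKM, 379518, Npas1 was highest (6.47 against 4.43 FPKM, gap 0.727), while Arnt, Ahrr and Cyp1b1 were lowest at 10.7, 0.25 and 0.56 FPKM. The part of summed FPKM in these values was not tested.

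In the EtOH group the highest mouse stood apart for Ncoa2, a nuclear receptor coactivator (24.0 against 15.6 FPKM, gap 0.589), and for Afmid, the kynurenine formamidase (2.21 against 1.69 FPKM, gap 0.582).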

How the results depend on the processing

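No paired analysis was possible because the columns carry mouse numbers and not the replicate numbers of the labels. Of the log2 fold changes of the AhR genes, 0 of 159 passed the threshold under other settings and 0 of 230 with a mouse left out. Signs were reversed in 20 and 18. Each fit gave several of these values. The smallest adjusted p was 0.523 (Tiparp, EtOH against Ctrl, 0.12 without the 3 libraries of highest summed FPKM). Reversed log2 fold changes in EtOH-UA against EtOH were, for Tiparp, 0.0001 (pseudocount 0.01), 0.0142 (quantile), 0.0117 (array weights), 0.0336 (summed FPKM as covariate) and 0.0017 (choroid plexus as covariate). For Arnt they were 0.0130 (weights), 0.0318 (without the 3 libraries) and 0.0393 (summed FPKM), and for Ahrr 0.0444 (weights) and 0.0850 (without the 3). In EtOH against Ctrl they were, for Ahrr, -0.0452 (quantile), -0.0283 (weights), -0.0365 (without the 3), -0.0192 (summed FPKM) and -0.0917 (choroid plexus), for Ahr 0.0240 (weights) and 0.0684 (without the 3), and for Cyp1b1 -0.0881 (choroid plexus). In EtOH-UA against Ctrl, Ahrr was 0.0161 (weights) and 0.0485 (without the 3). The cause was not tested. With each mouse left out the values ran, in EtOH-UA against EtOH, from -0.0412 to 0.0480 for Tiparp and from -0.0665 to 0.0186 for Arnt, in EtOH against Ctrl from -0.0670 to 0.0684 for Ahr and from -0.0365 to 0.1241 for Ahrr, and in EtOH-UA against Ctrl from -0.0018 to 0.0908 for Arnt. Genes called ran from 0 to 1 in each comparison: LOC101055676 without either of 2 EtOH-UA mice (adjusted p from 0.00389 to 0.00939), LOC115488002 without 1 Ctrl mouse (adjusted p = 0.0275), and with array weights 1 gene in EtOH against Ctrl, Cd24a (adjusted p = 0.0289, limma). Relations past the threshold were 2, 1 by Spearman ranks and 0 without the 2 farthest mice. The Ahr to Ahrr correlation was 0.0400 without those mice, and that of Ahrr to Tiparp 0.0563 by ranks and 0.0550 without them, each reversed. Scaling moved the median of all genes by less than 0.1. Depth limits Cyp1a1 most, at an estimated 2.24 fragments a mouse, and Ahrr next.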

Other observations

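Enzymes of the kynurenine pathway, which makes endogenous AhR ligands from tryptophan, were measured at low to moderate levels. Of 13 genes 9 were tested and 0 were called by limma in any comparison, and Ido1, Kmo, Kynu and Aadat were below the filter. Kyat1 and Tdo2 were the most abundant, at 5.25 and 4.15 FPKM. In EtOH against Ctrl mice Kyat3, a kynurenine aminotransferase, had a log2 fold change of -0.21 (SE 0.09, unadjusted p = 0.0246, adjusted p = 0.999, limma), with means of 2.597 ± 0.224 FPKM (SD, n = 9) and 2.26 ± 0.382 (n = 7). Haao, which acts on 3-hydroxyanthranilate, had -0.31 (SE 0.14, unadjusted p = 0.0302) from means of 0.384 and 0.294 FPKM. Afmid had -0.27 in EtOH-UA against Ctrl mice (SE 0.12, unadjusted p = 0.0309, adjusted p = 0.999, limma). Of the 9 tested genes 6 were lower and 3 higher in EtOH against Ctrl, and 3 were lower and 6 higher in EtOH-UA against EtOH, comparisons that share the EtOH mice.

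Coregulators through which AhR acts on chromatin were all measured. Of 13, 0 passed in any comparison and 0 had an unadjusted p under 0.05. Ncor1, a corepressor, was the most abundant at 38.9 FPKM, followed by Parp1 at 33.8 and Smarca4, the BRG1 ATPase, at 30.1. In EtOH-UA against EtOH mice 11 of 13 were lower and 2 higher, with a median log2 fold change of -0.07 against 0.00 for all genes tested. Ncor1 had -0.14 (SE 0.08, unadjusted p = 0.109, limma). Of 15 other bHLH-PAS genes, relatives of AhR and Arnt that include the clock and hypoxia regulators, 13 were tested and 0 passed. Epas1, Hif1a and Per1 were the most abundant at 25.1, 23.1 and 14.2 FPKM, and in EtOH-UA against EtOH 9 of 13 were lower and 4 higher (median -0.05).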
